A study of Danio rerio with 4 samples.

Results

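The Ras small GTPase genes of the zebrafish genome were followed in nuclear RNA from the heads of larvae at 5 days post-fertilisation (dpf). The members are NRAS, taken by its Ensembl identifier, and every gene in the count table whose symbol matched a list of 9 that includes hrasa, hrasb, rras, rras2, mras, rap1aa and rap1b when letter case and a trailing paralog letter were ignored. This rule found 11 of the 31952 genes in the table, and 10 of them are described. Symbols are printed as the name table gives them, so many zebrafish genes carry the capitals of their human counterpart. HRAS and MRAS each stand for 2 zebrafish genes, and rap1ab entered as the paralog of rap1aa. Every larva carried the same transgenes: mpo:BirA-Citrine, a biotin ligase made in neutrophils; bactin:Avi-Cerulean-Rangap, a nuclear envelope protein that the ligase biotinylates, made in all cells; kita:LexPR-Cerulean, a mifepristone-dependent activator under a melanocyte promoter; and PcrysB:ECFP-LexOP:mCherry-NRas, the oncogene that this activator switches on. The first pair is the line ox128. The second pair is labelled ox130, a number that the study's own list gives to the same oncogene paired with a mitfa driver. That list gives the kita pair another number. The 2 control libraries came from larvae raised without the drug, where the labels call the oncogene inactive. The 2 NRas+ libraries came from larvae given 1 μM mifepristone from 24 h post-fertilisation. Each library came from pooled larvae. According to the paper, the biotin-tagged nuclei were pulled down from dissected heads, and cDNA was amplified from small amounts of their RNA. Drug and oncogene came together in the NRas+ group, so their effects cannot be told apart here. The paper gave the drug to larvae of the biotin-tagging line alone and measured selected genes by qPCR. It reports little or no change in them, but no member was among them.

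Ras proteins are switches at the inner face of the plasma membrane, on when bound to GTP and off when bound to GDP. Exchange factors such as SOS load GTP, GTPase-activating proteins such as neurofibromin speed its hydrolysis, and the loaded form binds RAF kinases, phosphoinositide 3-kinase and exchange factors of the Ral GTPases. NRAS and HRAS belong to the classical members, whose mutated forms drive many human tumours, and NRAS is often mutated in melanoma. R-Ras, TC21 and M-Ras are close relatives, and the Rap1 proteins act on integrins and cell junctions, in leukocytes as well as in epithelia.

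Counts on genes totalled between 30619195 and 42365244 per library. Genes with a count numbered 21205 in control 1 and 21191 in NRas+ 1, against 25111 in control 2 and 24490 in NRas+ 2. Of the genes tested, 1096 were at 0 in control 1 and 1080 in NRas+ 1, against 46 in control 2 and 53 in NRas+ 2. The members had between 39 and 3484 counts in a library, so all 10 passed the filter on low counts and were tested. Values below are CPM, the counts scaled by library total and TMM factor. This factor was 1.41 in control 2 and between 0.861 and 0.941 in the other libraries, which lowers the CPM of control 2 relative to them. Tests are edgeR's quasi-likelihood F test, with p-values adjusted by Benjamini-Hochberg over the 20099 genes tested. CPM is not corrected for gene length, so levels are compared between libraries and not between genes. The label calls the tissue neutrophil, but the 11 matched neutrophil marker genes made up between 0.00358% and 0.00693% of the counts, with 1 to 3 of them at 0 in a library. The granule gene lyz was at 12.6 and 3.0 CPM in the controls and at 10.9 and 12.6 CPM in NRas+, and mpx could not be matched by symbol and is not analysed here. Skeletal muscle genes (38 listed) made up 27.4% of control 1, 19.1% of control 2, 38.2% of NRas+ 1 and 38.5% of NRas+ 2, and the muscle actin gene actc1b alone ranged from 40295 to 121560 CPM. Melanocyte markers (13 genes) took between 0.0158% and 0.0426%, epidermal markers (22 genes) between 0.283% and 0.619%, neuronal markers (21 genes) between 0.0477% and 0.0669% and macrophage markers (12 genes) between 0.000465% and 0.00118%. Of the melanocyte genes, DCT ranged from 9.55 to 15.0 CPM, KIT from 1.04 to 3.10 CPM and the MITF genes from 0.192 to 2.21 CPM. With transcripts of several tissues present, a difference in a member cannot be assigned to a cell type. In such bulk RNA, fewer cells of a type and less RNA per cell cannot be told apart.

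NRAS (ENSDARG00000038225), the zebrafish counterpart of the oncogene in the transgene, stood above the controls in both NRas+ libraries. NRAS stood at 9.19 CPM in control 1, 9.50 CPM in control 2, 23.3 CPM in NRas+ 1 and 17.3 CPM in NRas+ 2. On this TMM scale the controls lay close together and the NRas+ libraries further apart, without overlap. Control 1 had 247 counts on NRAS, of 30619195 in the library, and control 2 had 519, of 38915102. NRas+ 1 had 848, of 42365244, and NRas+ 2 had 660, of 40450112. The closeness of the controls, and most of the gap in CPM between control 2 and NRas+ 2, thus come from the TMM factor. The group means were 9.35 ± 0.218 and 20.3 ± 4.18 CPM (SD, n = 2 each), a 2.17-fold difference. The log2 fold change was 1.12 with a standard error of 0.45, and it did not pass the threshold (unadjusted p = 0.0217, adjusted p = 0.339, edgeR). DESeq2, the tool named in the study's methods, gave 1.15 with an adjusted p of 0.250, and over the 12 alternative settings the adjusted p of NRAS lay between 0.250 and 1.00. Leaving out single libraries moved the log2 fold change from 0.90 (without NRas+ 1) to 1.35 (without NRas+ 2). Whether reads of the mCherry-NRas transcript were counted on this gene was not tested, as the table holds 1 count per gene and no row for the transgene.

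The HRAS paralogs had opposite signs. HRAS ENSDARG00000098497 stood at 2.83 and 4.26 CPM in the controls and at 12 and 6.86 CPM in NRas+, so both NRas+ libraries were above both controls. This gene had 233 counts in control 2, of 38915102 in the library, and 261 in NRas+ 2, of 40450112. Most of the gap in CPM between those 2 libraries thus comes from the TMM factor. Its log2 fold change of 1.36 (SE 0.60) did not pass (unadjusted p = 0.0359, adjusted p = 0.398, edgeR), and it was 0.93 without NRas+ 1 and 1.76 without NRas+ 2. HRAS ENSDARG00000005651 stood at 8.93 and 11.5 CPM in the controls and at 4.96 and 9.04 CPM in NRas+. Here NRas+ 2 reached into the range of the controls, so the groups overlapped. The log2 fold change was -0.55 with a standard error of 0.53 (edgeR adjusted p = 0.743). The name table does not say which of these genes is hrasa and which hrasb.

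**Figure D1:**
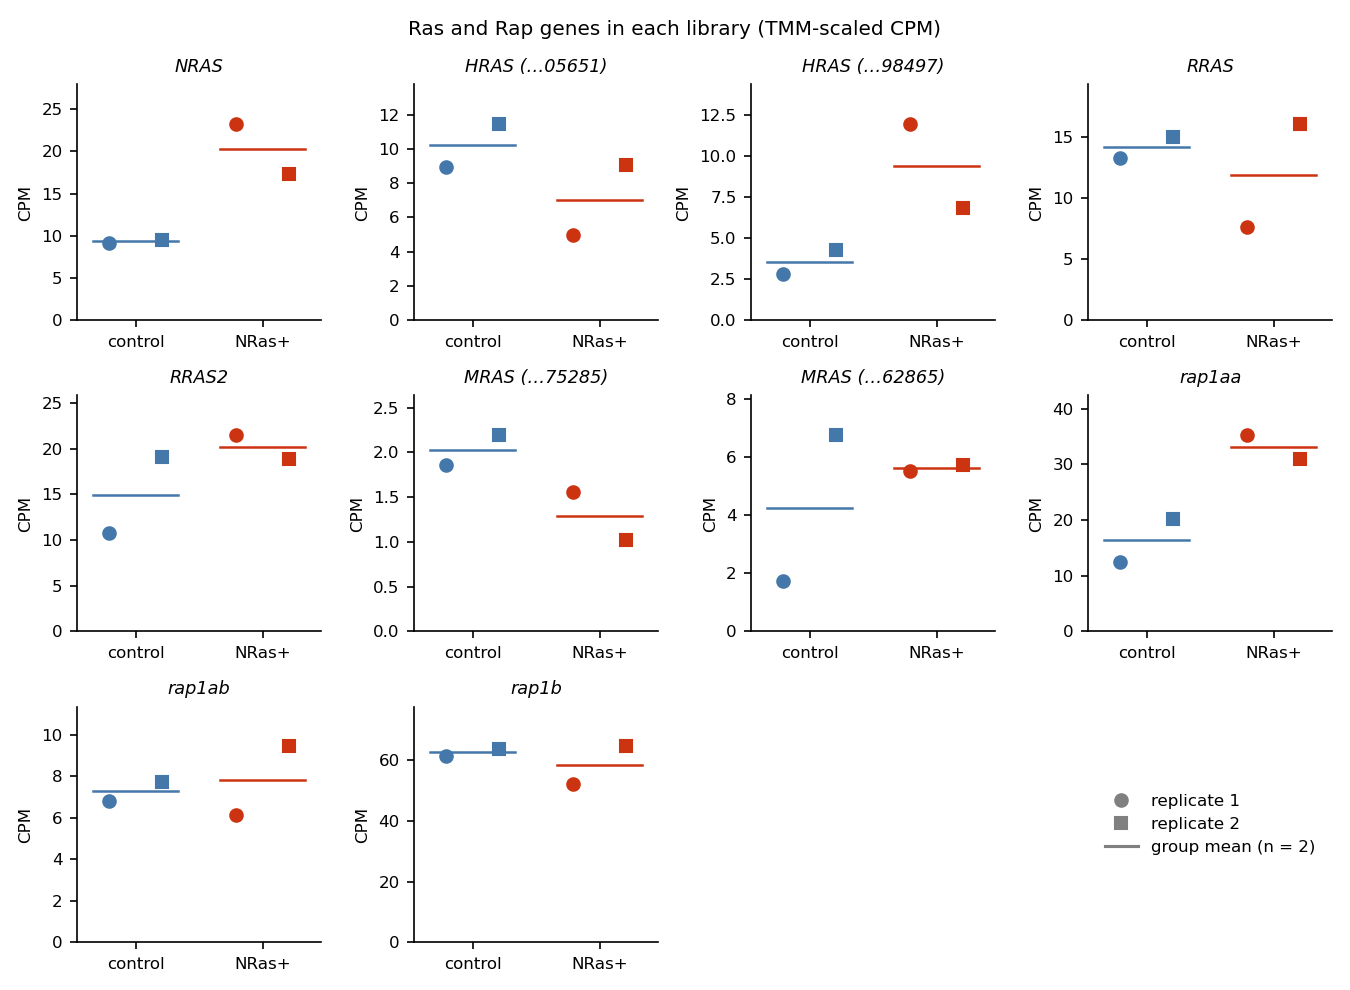
Each panel shows 1 gene, with CPM scaled by TMM on a linear axis from 0 and the 4 libraries as points (blue control, red NRas+, circles replicate 1, squares replicate 2, lines the means of 2 libraries). Panels of paralogs that share a symbol carry the last digits of the identifier. NRAS, HRAS ENSDARG00000098497 and rap1aa have both NRas+ points above both control points, and MRAS ENSDARG00000075285 has them below.

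Ratios of reads between 2 genes of 1 library are free of the scaling between libraries. The pairs were chosen after the values had been seen, and only their differences between libraries are read, since the ratio itself depends on the lengths of both genes. The ratio of HRAS ENSDARG00000098497 to HRAS ENSDARG00000005651 was 0.317 and 0.372 in the controls and 2.41 and 0.759 in NRas+, with no overlap and with NRas+ 1 the furthest from the controls. On the log2 scale this is -1.54 ± 0.165 against 0.44 ± 1.18 (SD, n = 2 each), a 3.94-fold difference of the geometric means, which was 2.21-fold without NRas+ 1 and 7.03-fold without NRas+ 2 (settings chosen after the data had been seen). Of 5 such pairs, RRAS2 to RRAS overlapped between groups, and as the pairs were picked by their values nothing is read from the number that did not. For each of the other 4 the exact two-sided permutation p was 0.333, the smallest that 2 libraries against 2 allow, so the ratios cannot pass a threshold by themselves.

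**Figure D2:**
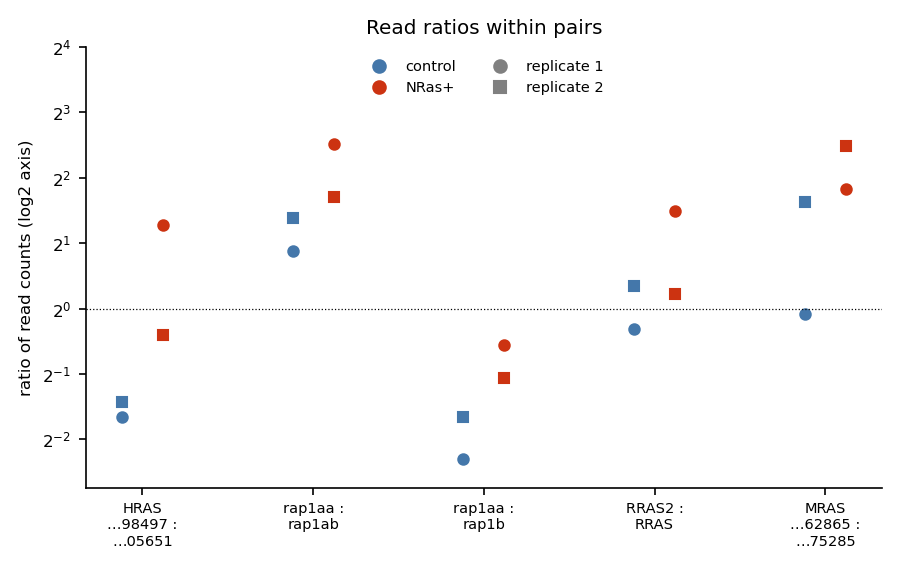
Points give ratios of read counts within 5 pairs of genes on a log2 axis (blue control, red NRas+, circles replicate 1, squares replicate 2). The HRAS pair is at 0.317 and 0.372 in the controls and at 2.41 and 0.759 in NRas+, and RRAS2 to RRAS is the pair whose groups overlap.

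In the R-Ras group (RRAS, RRAS2 and both MRAS genes) no member had an unadjusted p under 0.05, and in all but 1 of them the groups overlapped. RRAS (ENSDARG00000006553), whose human protein R-Ras promotes integrin-mediated adhesion, had 13.3 and 15.0 CPM in the controls and 7.65 and 16.1 CPM in NRas+. The NRas+ libraries lay on both sides of the controls, and the log2 fold change of -0.26 (SE 0.48, edgeR adjusted p = 0.890) turned to 0.19 without NRas+ 1. RRAS2 (ENSDARG00000036252) encodes TC21, a relative that can itself transform mammalian cells. It had 10.8 and 19.1 CPM in the controls and 21.5 and 18.8 CPM in NRas+. Control 1 was the low library, and the groups overlapped. The log2 fold change was 0.41 (SE 0.44, edgeR adjusted p = 0.782), and it was 0.09 without control 1 and 0.93 without control 2.

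M-Ras works with the scaffold SHOC2 and a phosphatase that removes an inhibitory phosphate from RAF. MRAS ENSDARG00000062865 had 1.75 CPM in control 1, and between 5.54 and 6.77 CPM in the other libraries. Control 1 was thus the outlying library, and the log2 fold change of 0.29 (SE 0.67, edgeR adjusted p = 0.919) became -0.25 without it and 1.71 without control 2. MRAS ENSDARG00000075285 was the member with the fewest reads, at 1.86 and 2.20 CPM in the controls and 1.56 and 1.03 CPM in NRas+. The groups did not overlap, but the log2 fold change of -0.68 was smaller than its standard error of 0.96 (edgeR adjusted p = 0.846).

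Of the Rap1 genes, rap1aa was higher in NRas+ and rap1ab and rap1b lay near equality. In mammals Rap1 was found as an antagonist of Ras transformation, and in leukocytes it switches integrins to their adhesive state. The gene rap1aa (ENSDARG00000012553) stood at 12.5 and 20.2 CPM in the controls and at 35.3 and 31.0 CPM in NRas+, with no overlap. Control 2 had 1102 counts on it, of 38915102 in the library, and NRas+ 2 had 1180, of 40450112. Most of the gap in CPM between those libraries thus comes from the TMM factor. The means were 16.3 ± 5.42 and 33.2 ± 3.03 CPM (SD, n = 2 each), which corresponds to a log2 fold change of 1.00 with a standard error of 0.41, which did not pass (unadjusted p = 0.0247, adjusted p = 0.352, edgeR). It was 0.73 without control 1 and 1.43 without control 2. The paralog rap1ab (ENSDARG00000087346) had 6.81 and 7.72 CPM in the controls and 6.14 and 9.46 CPM in NRas+, which overlap (log2 fold change 0.09, SE 0.54, edgeR adjusted p = 0.977). The gene rap1b (ENSDARG00000008867) stood at 61.4 and 63.8 CPM in the controls and 52.0 and 64.8 CPM in NRas+ (log2 fold change -0.10, SE 0.37, edgeR adjusted p = 0.957). Reads on rap1aa relative to rap1b were 0.204 and 0.316 in the controls and 0.678 and 0.479 in NRas+.

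**Figure D3:**
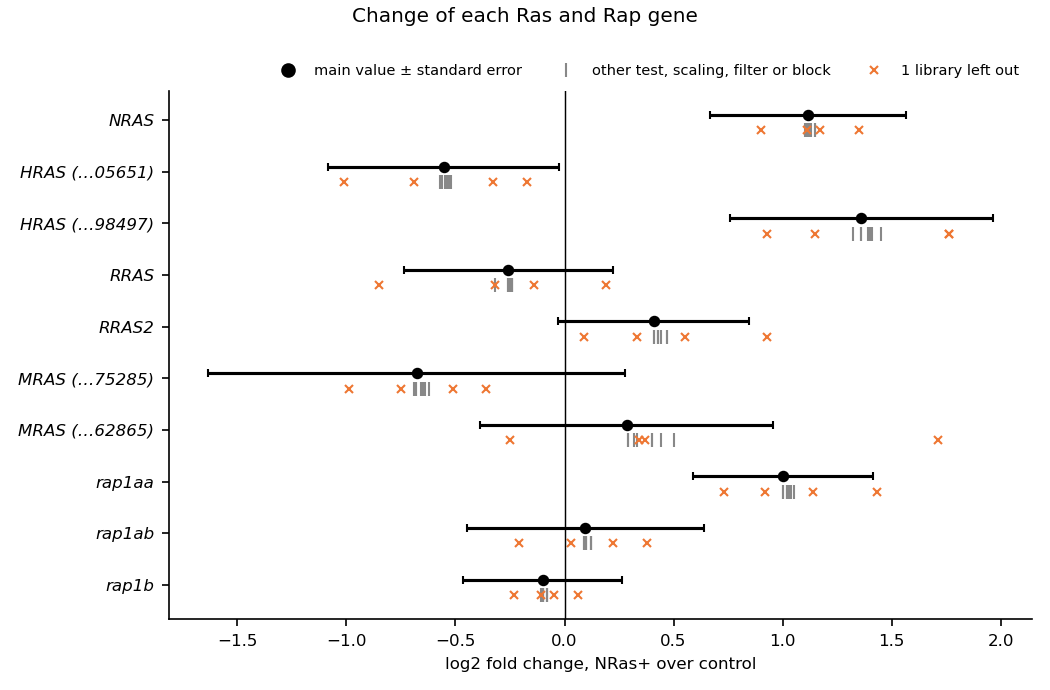
For each gene the black point and bar give the log2 fold change of NRas+ over control and its standard error from edgeR. Grey ticks give it under other tests, scalings, filters and the replicate block, and orange crosses with 1 library left out. The grey ticks lie close to the black points, while the crosses spread and cross 0 for RRAS, MRAS ENSDARG00000062865, rap1ab and rap1b.

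None of the 10 members passed an adjusted p of 0.05 in edgeR's quasi-likelihood test, where 0.169% of all genes tested passed, 0.129% as higher and 0.0398% as lower. In DESeq2 0 of the 10 passed, against 2.05% of genes, 1.26% higher and 0.79% lower. At an unadjusted p under 0.05 in edgeR, 3 of these 10 were higher (NRAS, HRAS ENSDARG00000098497 and rap1aa), against 5.17% of all genes higher, 6.13% lower and 11.3% in either direction. As not every gene of the rule is included, nothing is read from the balance of directions among them. In 4 of the 10 members, or 40.0%, the libraries of the groups did not overlap, and over all genes this share was 42.3%, so the absence of overlap by itself is no result about the members. The median log2 fold change of the 10 members was 0.19, beside -0.04 over all genes. Markers of muscle, epidermis and some other cell types included genes above both controls in both NRas+ libraries, like NRAS, HRAS ENSDARG00000098497 and rap1aa. Of 37 muscle genes tested, 25 did not overlap as higher and 0 as lower, with a median log2 fold change of 0.92, and edgeR called 0 (9 at an unadjusted p under 0.05) and DESeq2 6. Of 22 epidermal genes, 9 did not overlap as higher and 1 as lower, with a median of 0.51, and edgeR called 2 and DESeq2 5, all higher. The 2 called by edgeR, named after their values had been seen, were PKP1, which encodes a plakophilin of desmosomes (log2 fold change 4.70, edgeR adjusted p = 0.00541), and the claudin gene cldne (2.42, edgeR adjusted p = 0.0332). The summed epidermal share overlapped between the groups. Of 8 neutrophil genes tested, 3 did not overlap as higher and 1 as lower, with a median of 0.78. For 9 macrophage genes these values were 2, 1 and 0.76. They were 0, 5 and -0.56 for 13 melanocyte genes, and 4, 0 and -0.05 for 21 neuronal genes. In these lists edgeR and DESeq2 called 0 genes. Over all genes, 20.5% did not overlap as higher and 21.8% as lower. The part of any of these cell types in the members' values was not tested.

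Around the switch itself, 141 further genes were read in 8 lists (130 tested), and none passed in edgeR's quasi-likelihood test. At an unadjusted p under 0.05 in that test, 5 of the 130 were higher and 13 of the 130 lower. Over all genes the shares were 5.17% and 6.13%. DESeq2 called 1 of them, rerglb. By list, the groups did not overlap in 66.7% of the lipid processing genes, 62.5% of the exchange factors and 61.1% of the Rap1 regulators. For GTPase-activating proteins, receptor adaptors and the wider Ras family these shares were 50%, 46.7% and 40%. They were 35.7% for the ERK cascade and 33.3% for effectors, beside 42.3% over all genes. Of the exchange factors for Ras, 8 were tested, 4 with a positive and 4 with a negative log2 fold change, and the median was -0.12. RASGRP2 (ENSDARG00000099092), an exchange factor that acts mostly on Rap1 in blood cells, had the smallest p among the negative ones, with 0.484 and 1.54 CPM in the controls and 0.0823 and 0.368 CPM in NRas+ (edgeR adjusted p = 0.532). Among the positive ones it was rasgrp4 (ENSDARG00000061796), with 0.930 and 1.57 CPM in the controls and 4.66 and 1.87 CPM in NRas+ (edgeR adjusted p = 0.641).

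Of 14 GTPase-activating proteins of Ras, 11 had a negative and 3 a positive log2 fold change, with a median of -0.61 beside -0.04 over all genes. In 7 of the 14 both NRas+ libraries lay under both controls, and in none above, where over all genes 21.8% lay under and 20.5% above. RASAL2 (ENSDARG00000036257) had the smallest p of this list, with 56.6 and 39.3 CPM in the controls and 22.3 and 22.4 CPM in NRas+. Its NRas+ values were nearly equal and its controls were not, and the log2 fold change of -1.09 (SE 0.39) had an unadjusted p of 0.0113 and an adjusted p of 0.276 from edgeR.

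The 20 exchange factors, GTPase-activating proteins and binding proteins of Rap1 had the lowest median of the 8 lists, -0.95. Of the 18 tested, 14 were negative and 4 positive, 9 did not overlap as lower and 2 as higher, beside 21.8% and 20.5% over all genes, and 5 were lower at an unadjusted p under 0.05, beside 6.13%. SIPA1L1 (ENSDARG00000020134), a GTPase-activating protein of Rap, stood at 9.23 and 5.18 CPM in the controls and at 0.768 and 1.81 CPM in NRas+. Both NRas+ libraries were well under both controls, with a log2 fold change of -2.42 (SE 0.79, unadjusted p = 0.00643, edgeR adjusted p = 0.227) and an adjusted p of 0.0536 from DESeq2. RAP1GDS1 (ENSDARG00000073741), a chaperone of small GTPases, had 0.409 and 0.458 CPM in the controls and 2.58 and 0.894 CPM in NRas+ (edgeR adjusted p = 0.559). SIPA1 (ENSDARG00000076697), a further GTPase-activating protein of Rap, stood at 19.2 and 4.32 CPM in the controls and at 3.37 and 1.71 CPM in NRas+. With all libraries its log2 fold change was -2.14 (edgeR adjusted p = 0.248). It was -2.90 without control 2 but -0.76 without control 1, the library with the highest value.

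Of 21 effectors tested, 13 were negative and 8 positive, with a median of -0.28. AFDN (ENSDARG00000029472) encodes afadin, which binds Ras and Rap1 at adherens junctions. It had 103 and 61.5 CPM in the controls and 36.3 and 32.8 CPM in NRas+, all NRas+ values lying under all control values. Its log2 fold change was -1.25 (SE 0.39, unadjusted p = 0.00462, edgeR adjusted p = 0.201). The change of AFDN was -1.55 without control 2 and -0.82 without control 1. TIAM1 (ENSDARG00000025920), a Rac exchange factor that binds Ras, stood at 31.7 and 9.19 CPM in the controls and at 7.40 and 4.78 CPM in NRas+. Its log2 fold change was -1.71 (edgeR adjusted p = 0.234), with -2.36 without control 2 but -0.58 without control 1, the library with the highest value. The other TIAM1 gene (ENSDARG00000078430) had -0.28, and its groups overlapped. TIAM1 and SIPA1 were singled out after their values had been seen.

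The ERK cascade itself was evenly split, with 7 of 14 genes positive, 7 negative and a median of 0.05. The genes of smallest p were pebp1 (ENSDARG00000042069), a RAF inhibitor, with 6.10 and 11.6 CPM in the controls and 14.6 and 19.2 CPM in NRas+ (edgeR adjusted p = 0.501), and IQGAP1 (ENSDARG00000078888), a scaffold, with a log2 fold change of -0.56 (adjusted p = 0.640). Of 15 receptor adaptors 4 were positive and 11 negative, with a median of -0.52. CBL (ENSDARG00000009958), the ubiquitin ligase of activated receptors, stood at 13.7 and 14.3 CPM in the controls and at 6.88 and 6.83 CPM in NRas+. Replicates agreed closely in both groups, and the log2 fold change of -1.03 (SE 0.49) had an unadjusted p of 0.0475 and an adjusted p of 0.436 from edgeR. CRKL (ENSDARG00000028699), an adaptor that binds a Rap1 exchange factor, had a log2 fold change of 0.80 (edgeR adjusted p = 0.517).

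Of 15 tested genes for the lipid processing that brings Ras to membranes, 8 were positive and 7 negative, and the median was 0.24. ICMT (ENSDARG00000020241), which methylates the prenylated end of Ras, had 1.23 and 4.5 CPM in the controls and 9.35 and 7.86 CPM in NRas+ (log2 fold change 1.45, SE 0.65, unadjusted p = 0.0380, edgeR adjusted p = 0.405). The palmitoyltransferase gene ZDHHC14 (ENSDARG00000037069) had a log2 fold change of -1.22 (edgeR adjusted p = 0.652). Of 25 tested relatives in the wider Ras family 13 were positive and 12 negative, with a median of 0.11. The gene rerglb (ENSDARG00000054324) stood at 0.149 and 0.897 CPM in the controls and at 8.39 and 3.26 CPM in NRas+, with a log2 fold change of 3.20 (SE 0.97) and an adjusted p of 0.188 from edgeR, whereas DESeq2 called it (3.5, adjusted p = 0.0206). RRAD (ENSDARG00000052011), a GTPase that restrains calcium channels in muscle cells, had 5.62 and 0.622 CPM in the controls and 0.384 and 0.237 CPM in NRas+, with no overlap. Its log2 fold change of -3.08 (edgeR adjusted p = 0.398) was -0.99 without control 1, a setting chosen after the data had been seen.

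**Figure D4:**
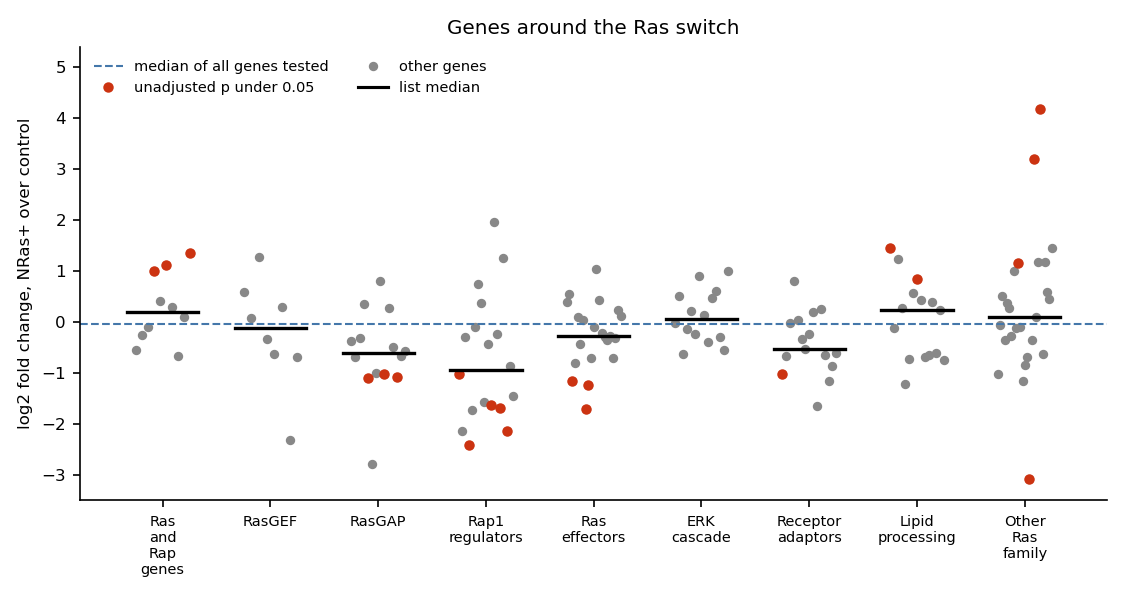
Each point is a tested gene, placed by its log2 fold change of NRas+ over control, in the members (left) and in 8 lists of genes around them. Red points have an unadjusted p under 0.05 in edgeR, black bars are list medians and the dashed line is the median of all genes, -0.04. The Rap1 regulators have the lowest median, -0.95, and the members have 3 red points above the line.

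Across the 4 libraries, the genes with a symbol whose log2 CPM followed NRAS most closely were TXNDC12 (ENSDARG00000038980), IDH1 (ENSDARG00000025375) and TMCO3 (ENSDARG00000075108). Each had a Pearson r of 1.000. An r over 4 libraries rests on few points. Of the 20099 genes tested, with or without a symbol, 699 had an r of at least 0.95. TXNDC12 had 5.92 and 6.04 CPM in the controls and 14.4 and 10.9 CPM in NRas+, the same order of libraries as NRAS. Of the other members, HRAS ENSDARG00000098497 had an r of 0.963 to NRAS and rap1aa one of 0.912. HRAS ENSDARG00000005651 had the lowest, -0.816, and the rest lay between -0.654 (MRAS ENSDARG00000075285) and 0.677 (RRAS2). These values describe 4 points that share the split into groups.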

How the data were processed

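The members and gene lists were chosen with earlier results of these data known. The authors mapped reads with STAR 2.4.2a to danRer10 and ran featureCounts over an Ensembl annotation (release not given in the sources used here). The files deposited hold raw counts, with no scaling. The labels call the strand reverse whereas the methods name standard settings, so how reads of overlapping or antisense genes were counted is not clear. How reads of near-identical paralogs were counted is not stated either. Groups came from sample titles, and no value column was left unused. Symbols came from a name table that matched 26121 of 31952 genes. No coordinates or sequences are given. Of the genes found, 1 of the rule and 2 genes of the lists are not reported here, and counts over members leave the first out.

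Genes were kept with filterByExpr (minimum count 10), scaled by TMM and tested with edgeR 4.0.16 in R 4.3.3, control against NRas+ with no covariate, at an adjusted p of 0.05. Standard errors are the log2 fold change over the root of the F statistic. DESeq2 1.42.0, other tests, scalings and filters, the replicate block and leaving out each library were alternatives. Log2 CPM for correlations used a prior count of 2. Tests were checked on simulated counts first, with changes larger than those of the members. That check does not show how often changes of the members' size would be found. Named genes are the members and, of each list, any gene past the threshold and the smallest p in each direction. The paper calls its replicates biological in places and technical in others. It reports collecting more of them than the 2 libraries per group used here. It does not say that they came from separate clutches, so p-values measure the spread between these libraries.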

Additional observations from a re-analysis of the deposited data

How the results depend on the processing

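No member passed the threshold under any of the 12 alternatives, the lowest adjusted p being 0.142 (rap1aa in edgeR without control 2). Of 120 values of members under alternatives, 4 turned their sign: MRAS ENSDARG00000062865 to -0.25 without control 1, RRAS to 0.19 and rap1b to 0.06 without NRas+ 1, and rap1ab to -0.21 without NRas+ 2. The other end of the range with 1 library left out was 1.71 for that MRAS gene, -0.85 for RRAS, -0.23 for rap1b and 0.38 for rap1ab. The other 6 members kept their sign in all 12 alternatives. The genes called over the whole table, 26 higher and 8 lower, became 233 and 146 under DESeq2, 137 and 93 under edgeR's likelihood ratio test and 10 and 0 under its legacy quasi-likelihood. A minimum of 10 counts in all 4 libraries gave 88 and 64. With no filter 2 were lower. With 1 library left out, between 6 and 88 were higher and between 0 and 262 lower, the most without control 2, where the median of all genes moved from -0.04 to 0.15. It was -0.18 without NRas+ 2. The cause was not tested. Of the pathway lists, DESeq2 called 1 gene higher, and with 1 library left out between 0 and 3 were lower. Lone libraries in such fits are assumed to vary like the others.

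A block for the replicate number left 7 calls higher and 0 lower, none of them a member (NRAS 1.1 with an adjusted p of 0.331, edgeR). Across genes, the difference between the replicates of the controls had a correlation of 0.147 with that of NRas+, over 2 pairs. In both groups replicate 1 had fewer genes with a count than replicate 2, and the reason was not tested. The labels state no pairing. The paper describes larvae of both conditions in each experiment, but not whether libraries of the same number came from the same experiment.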
